A study of Mus musculus with 18 samples.

Results

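Naive dura mater of mast cell-deficient mice was compared with naive dura of wild-type mice. The dura is the outer membrane around the brain, where mast cells normally reside. The comparison held 6 of the 18 arrays of the series, the 3 labelled as naive and mast cell-deficient against the 3 labelled as naive and wild type, chosen by these labels and not by any measured value. All 21640 probe sets that the annotation pairs with exactly 1 gene symbol, for 19937 genes, were compared.

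The deficient mice were WBB6F1-KitW/W-v and the wild-type mice WBB6F1-Kit+/+. All were male and were described as matched to stroke mice aged 17 to 21 weeks. None of the 6 mice was operated on or received mast cells, and all were perfused through the heart with cold saline under isoflurane before the dura was taken. Each dura was run on its own Affymetrix mouse gene array without pooling, so 1 array stands for 1 mouse. The series also holds stroke and engrafted groups. The 3 stroke wild-type and 3 stroke deficient mice had the same genotypes, and their dura was taken 2 days after the middle cerebral artery had been closed with a filament for 30 minutes. The 3 naive engrafted mice were KitW/W-v mice given mast cells intravenously 8 to 10 weeks before the experiment. Both serve here only as further values for the same genes. Stroke mice were not set against sham-operated mice here. The study asked how mast cells influence meningeal gene changes after stroke, and naive dura is its baseline.

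Mast cells are long-lived tissue cells that store histamine, heparin, chymases, tryptases and carboxypeptidase A in granules. Their precursors need signals from Kit, a receptor tyrosine kinase activated by stem cell factor, to mature and survive in tissue. The W allele gives a Kit protein that does not reach the cell surface, and W-v gives one with weak kinase activity. Blood-forming cells, melanocytes and germ cells also use Kit, so these alleles do not act on mast cells alone, which limits the mice as a model of mast cell loss.

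Levels below are the deposited log2 values, and differences are log2, deficient minus wild type, with the standard error (SE) of a limma fit over all 18 arrays. Adjusted p-values are limma's with Benjamini-Hochberg adjustment over the 21640 probe sets. Array medians over the series lay between 7.77 and 7.91 and the lower quartiles between 6.09 and 6.24. A level below that quartile range was treated as not shown to be above background. The median SE of a difference was 0.10, and the number of arrays limits this precision. In these bulk samples, fewer cells of a type and less RNA per cell cannot be told apart.

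Transcripts of 4 granule proteases, Mcpt2, Cpa3, Mcpt4 and Tpsb2, fell in deficient dura. Of the 10 listed mast cell proteases, 8 had a probe set. Adjusted p was under 0.05 for 4 of them, all lower, against 4 of 21640 (0.0185%) among all probe sets, so that these 4 were every lower call of the comparison. A total of 0 probe sets were higher (0%), beside 597 higher (2.76%) and 879 lower (4.06%) at an unadjusted p under 0.05. The list had a median difference of -1.02, against -0.01 over all tested probe sets, and 6 of its 8 members had unadjusted p under 0.05. In the same 6, the 3 deficient arrays all lay below the 3 wild-type arrays, as did 6.77% of all probe sets.

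Promoter sequences are shown for the protease genes that the RefSeq promoter table held, to set the called genes Cpa3 and Mcpt4 beside 2 other chymases, Cma1, which did not pass, and Mcpt1, which was dim in both groups. The table (build GRCm38.p6) held 4 of the 7 proteases looked up, and Mcpt2, Tpsb2 and Tpsab1 were not among them. Each line gives the 250 bases before the start of the gene, 5′ to 3′ on the gene's strand. Capitals mark a match, on either strand, to letters that GATA factors are known to bind, which are AGATAA, the variant TGATAA, the variant AGATAG and the variant TGATAG. The intervals are chr3:20242182-20242431 on the minus strand for Cpa3, chr14:56062311-56062560 on the minus strand for Mcpt4, chr14:55944676-55944925 on the minus strand for Cma1 and chr14:56017714-56017963 on the plus strand for Mcpt1.
Cpa3: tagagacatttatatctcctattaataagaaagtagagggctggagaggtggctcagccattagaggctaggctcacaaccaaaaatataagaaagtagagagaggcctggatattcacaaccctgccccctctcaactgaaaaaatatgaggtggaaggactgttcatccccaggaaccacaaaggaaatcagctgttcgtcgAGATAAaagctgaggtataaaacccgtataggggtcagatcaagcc
Mcpt4: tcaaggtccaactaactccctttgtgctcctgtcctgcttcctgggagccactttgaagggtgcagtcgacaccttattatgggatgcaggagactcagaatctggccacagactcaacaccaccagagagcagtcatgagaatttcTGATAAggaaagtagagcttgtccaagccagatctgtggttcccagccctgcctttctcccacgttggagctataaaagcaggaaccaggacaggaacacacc
Cma1: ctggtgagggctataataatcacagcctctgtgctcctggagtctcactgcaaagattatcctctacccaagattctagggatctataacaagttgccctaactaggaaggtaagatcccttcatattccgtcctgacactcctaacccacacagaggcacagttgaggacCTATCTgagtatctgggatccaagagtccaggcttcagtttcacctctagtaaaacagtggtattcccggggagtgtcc
Mcpt1: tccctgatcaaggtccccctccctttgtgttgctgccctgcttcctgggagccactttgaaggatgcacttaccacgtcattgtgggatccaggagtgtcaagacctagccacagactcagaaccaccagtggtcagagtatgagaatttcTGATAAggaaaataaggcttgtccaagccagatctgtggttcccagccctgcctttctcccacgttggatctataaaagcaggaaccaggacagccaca
Each of the 4 held 1 such match, and 26.5% of the 32851 promoters in the table held at least 1. The E-box letters CACGTG and CATGTG, searched on both strands because MITF binds E-boxes, were in none of the 4 windows and in 17.6% of the table. The Mcpt4 and Mcpt1 windows were identical at 213 bases, 81.9% of their alignment, whereas the other pairs were identical over 48.3% to 54.1%. A match describes letters only and shows no binding.

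Mcpt2, a chymase of mucosal-type mast cells, had levels of 10.05, 9.71 and 9.61 in the wild-type arrays and 4.93, 5.13 and 5.13 in the deficient arrays. Every wild-type array lay far above every deficient array, and the deficient levels were below the lower quartile of all arrays. The difference was -4.73 ± 0.36 (SE, n = 3 and 3; limma adjusted p = 1.59e-05), at least 26.5-fold since the deficient level is only an upper bound.

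Cpa3, the carboxypeptidase A of mast cell granules, had levels of 9.79, 9.13 and 9.41 in wild type and 5.82, 5.66 and 5.80 in deficient dura. Mcpt4, the chymase of connective tissue mast cells and the gene of the second promoter above, had levels of 9.24, 8.99 and 9.19 against 5.40, 5.82 and 5.59. Neither gene had overlapping groups, and in both the deficient arrays again lay below the lower quartiles. The difference was -3.68 ± 0.37 for Cpa3 (limma adjusted p = 0.000419, at least 12.8-fold) and -3.54 ± 0.37 for Mcpt4 (adjusted p = 0.000461, at least 11.6-fold). With deficient arrays 1 and 3 both left out, which leaves 1 deficient array, Mcpt2 still passed, while Cpa3 (-3.79, limma adjusted p = 0.09) and Mcpt4 (-3.32, 0.108) did not.

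Tpsb2, a tryptase stored in the same granules, had levels of 8.52, 8.21 and 8.29 in wild type and 7.10, 7.26 and 7.08 in deficient dura. The groups were apart by almost a log2 unit, but the deficient level stayed above the lower quartiles. The difference was -1.19 ± 0.16 (limma adjusted p = 0.0121). Leaving out 1 array of wild type ended the call of Tpsb2 for array 1 (limma adjusted p = 0.0516) and for array 3 (0.071), and so did leaving out deficient array 1 (0.112) and array 3 (0.0954), with differences of -1.10 to -1.22.

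Tpsab1, another tryptase, had levels of 7.80, 7.69 and 7.53 against 6.99, 6.99 and 6.97, and Cma1, a chymase, 7.70, 7.02 and 7.22 against 6.46, 6.48 and 6.44. The groups did not overlap for either gene, and the deficient arrays were within 0.05 of each other for both. The differences of -0.69 ± 0.12 and -0.86 ± 0.19 did not pass (limma adjusted p = 0.171 and 0.290). Mcpt1, a chymase close in sequence to Mcpt4, had levels of 4.53 to 4.75 on the 6 arrays, below the lower quartiles in both groups, with a difference of 0.02. Tpsg1, a tryptase anchored in the membrane, had 6.81 to 7.05 and a difference of 0.06 with overlapping groups. Probe sequences were not used here, so signal of one protease on the probe set of a near-identical one was not examined.

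**Figure D1:**
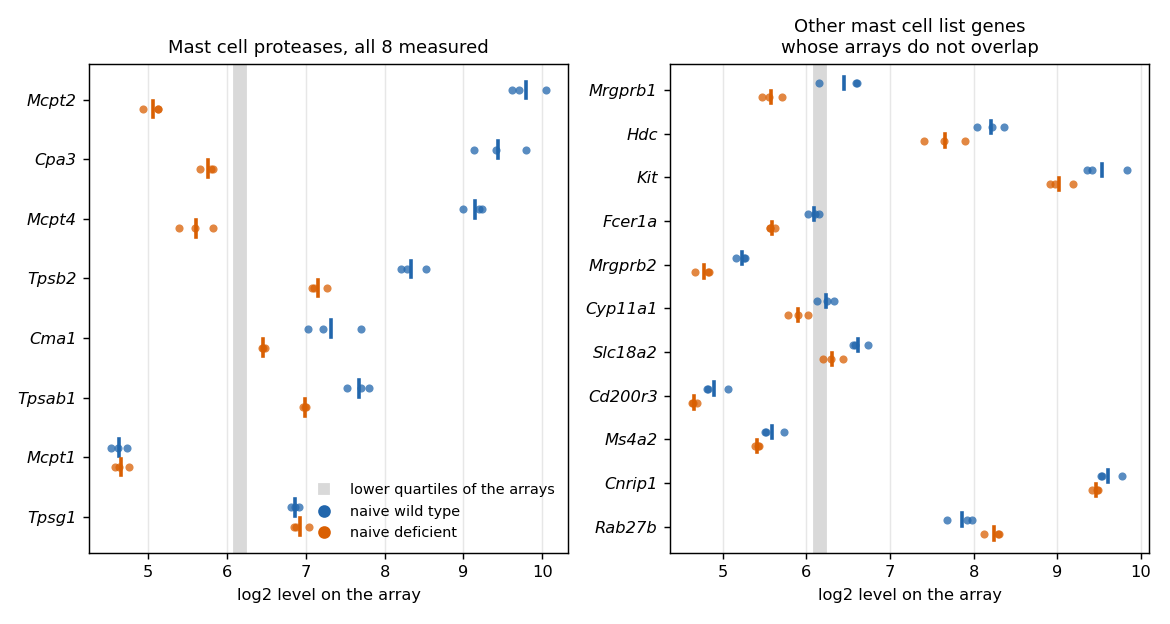
Deposited log2 level (x axis) of the 8 measured mast cell proteases and of the other mast cell list genes whose groups did not overlap, 1 point per mouse with bars at the group means (blue wild type, orange deficient; 3 arrays each); the grey band spans the arrays' lower quartiles, 6.09 to 6.24. The 3 deficient arrays of Mcpt2, Cpa3 and Mcpt4 lie left of the band, whereas Rab27b is the only gene of the right panel with the deficient arrays on the high side.

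The wider mast cell identity and mediator list had a smaller median difference than the proteases. Of 25 listed genes 23 were measured, and by limma 0 passed adjustment in either direction. At an unadjusted p under 0.05, 9 were lower and 1 was higher, against 4.06% lower and 2.76% higher over all probe sets. In 10 genes the deficient arrays all lay below the wild-type arrays, and in 1 (Rab27b) all lay above, where 5.06% of all probe sets did. The median difference was -0.17, and it was -0.07 without wild-type array 2 and -0.09 with array weights. With deficient arrays 1 and 3 left out, 5 genes were lower at an unadjusted p under 0.05.

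Among the enzymes that make or load mediators, Hdc, which makes histamine, had levels of 8.22, 8.04 and 8.36 in wild type and 7.41, 7.90 and 7.65 in deficient dura. All deficient arrays were below the lowest wild-type array, and the difference was -0.55 ± 0.14 (limma adjusted p = 0.327). Slc18a2, the transporter that loads histamine and other amines into granules, differed by -0.31 and Cyp11a1, a steroid-making enzyme, by -0.33, neither passing. Ltc4s, the leukotriene C4 synthase, was 8.46, 8.38 and 8.24 against 7.68, 8.39 and 7.67, and its groups overlapped through deficient array 2. Ndst2, needed for heparin synthesis, and Hpgds, a prostaglandin D synthase, differed by -0.03 and -0.02. Tph1, which starts serotonin synthesis and is also a pineal gland gene, had levels of 12.78 to 13.28 over the 6 arrays.

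Of the surface receptors, Mrgprb1, a Mas-related receptor, had levels of 6.59, 6.16 and 6.61 against 5.48, 5.71 and 5.55, a difference of -0.87 ± 0.25 (limma adjusted p = 0.568). Fcer1a, the IgE-binding chain of the high-affinity IgE receptor, had 6.15, 6.02 and 6.10 against 5.57, 5.63 and 5.57, a difference of -0.50 ± 0.18 (adjusted p = 0.669). Both genes were without overlap, near or below the lower quartiles in both groups, and neither passed. Mrgprb2, the receptor for basic secretagogues, differed by -0.45 and Ms4a2, the beta chain of the IgE receptor, by -0.17, both at low levels in both groups. Members with small differences and overlapping groups included Gata2 (-0.03) and Mitf (-0.02), transcription factors, Cd63 (0.00), a granule membrane protein, and Srgn (0.12), the core protein of granule proteoglycans. Rab27b, a regulator of granule release, had levels of 7.92, 7.68 and 7.98 against 8.30, 8.30 and 8.12 (0.38 ± 0.13, adjusted p = 0.653). Of 8 basophil genes, 4 of which also stand in the mast cell list, by limma 0 passed, and the median was -0.10. At an unadjusted p under 0.05 and with no overlap, 4 were lower. The shares over all probe sets were 4.06% lower at that p and 6.77% lower without overlap. The 4 lower genes included Mcpt8, a basophil protease, at 6.51, 6.46 and 6.76 against 6.09, 6.09 and 6.15 (-0.47 ± 0.17, adjusted p = 0.693).

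Kit, the mutated receptor, had levels of 9.41, 9.83 and 9.36 in wild type and 8.98, 8.91 and 9.19 in deficient dura. The groups did not overlap and differed by -0.51 ± 0.15 (limma adjusted p = 0.565), which did not pass. The position of its probes relative to the altered parts of Kit was not used here, so the level does not check the genotype. The level in deficient dura was well above the lower quartiles. The nearest measured genes on the annotated chromosome, 10 in all and including Pdgfra, Kdr and Clock, differed by -0.11 to 0.03, with 95% confidence intervals between -0.33 and 0.19. Kitl, which encodes stem cell factor, the ligand of Kit, differed by -0.02 ± 0.11. Of 17 measured genes of Kit ligand and signalling, by limma 0 passed and 0 had an unadjusted p under 0.05, and their median difference was 0.02.

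Genes on which mast cell mediators act showed no call. Of 11 measured receptors and breakdown enzymes for histamine, tryptase, prostaglandin D and leukotrienes, by limma 0 passed and 0 had an unadjusted p under 0.05. Hnmt, which inactivates histamine, differed by -0.16 and Hrh2, a histamine receptor, by 0.14. Of 17 measured cytokine genes that mast cells can make, 0 passed and 1, Tgfb1, was higher at an unadjusted p under 0.05, by 0.22 ± 0.10 (limma adjusted p = 0.732). Il33, an alarm cytokine that activates mast cells, had levels of 10.51, 10.22 and 9.90 against 10.44, 10.33 and 10.56, with overlapping groups.

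Beyond the proteases, no gene passed, and the largest differences are given as values. The 247 genes with unadjusted p under 0.01, no overlap between groups and a higher group mean above the lower quartiles comprised 119 higher and 128 lower. Their 15 lowest were the 4 called proteases, then S100a8, Mmp8, Retnlg, Chil3, S100a9, Ngp, Ly6g, Stfa2, Ltf and Ifitm6, and Slc6a5, a glycine transporter. Their 15 highest were led by Igkv4-55, Atp6v0d2, Acp5, Mmp9 and Tnc. With wild-type array 1 left out 10 probe sets passed in place of 4. Of genes given here, these included Vdr and Gask1a (adjusted p = 0.0415 each, differences of 0.93 and 0.78). With array weights 36 passed, 15 of them higher. These included the neutrophil genes S100a8, S100a9, Mmp8, Retnlg, Lcn2 and Ly6g with negative differences, and Acp5, Oscar, Ctsk and Atp6v0d2 of the osteoclast list and Mmp9 with positive ones. Mast cell list genes Tpsab1, Cma1, Hdc and Cyp11a1 passed there as well, all with negative differences (limma adjusted p = 0.0169 to 0.0497). In that fit deficient array 1 had a weight of 4.05, against 0.40 to 1.42 for the other arrays of the comparison.

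**Figure D2:**
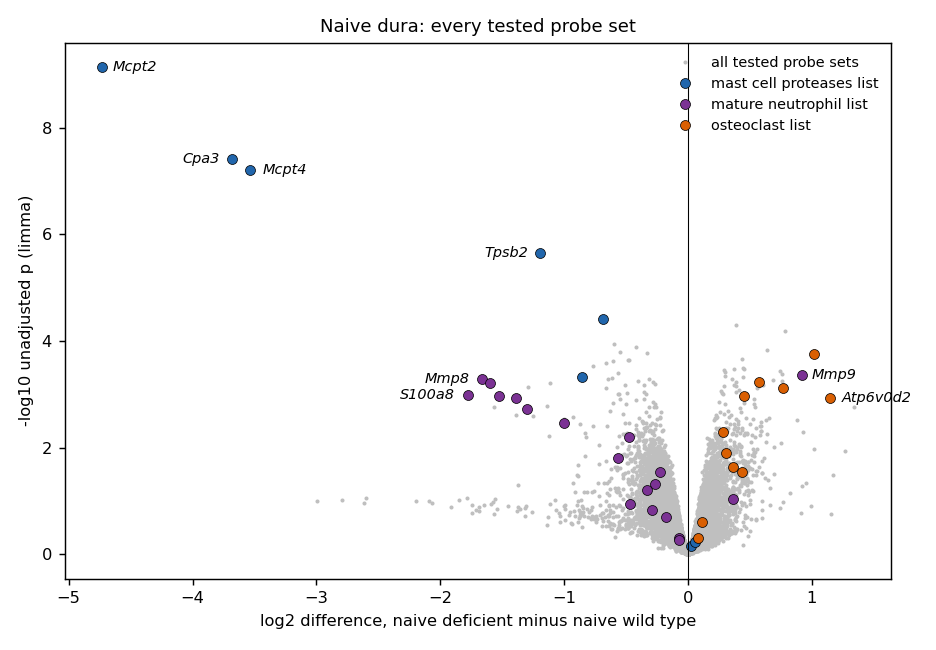
Log2 difference (x axis, deficient minus wild type) against -log10 of the unadjusted limma p (y axis) for the 21640 tested probe sets, with the protease, mature neutrophil and osteoclast lists coloured. Mcpt2, Cpa3, Mcpt4 and Tpsb2 are the 4 that passed adjustment, most coloured neutrophil genes lie left of 0 and all 11 osteoclast genes lie right of it.

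Neutrophil genes had negative differences in deficient dura, and none was called, while those given above passed with array weights. Neutrophils are short-lived granulocytes whose granule proteins are transcribed mainly during their development in bone marrow. Of 19 measured genes of the mature neutrophil list, by limma 0 passed, 11 were lower and 1 higher at an unadjusted p under 0.05, and 13 were lower and 1 higher with no overlap between groups. Over all probe sets, 4.06% were lower at that p and 6.77% lower without overlap. The median difference was -0.47.

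S100a8, a subunit of calprotectin, had levels of 10.60, 9.59 and 10.38 in wild type and 8.08, 8.76 and 8.40 in deficient dura, and S100a9, its partner, 10.27, 9.44 and 10.31 against 7.94, 8.62 and 8.87. In both genes wild-type array 2 was the lowest of its group and still lay above all deficient arrays. The differences were -1.78 ± 0.44 and -1.53 ± 0.38 (limma adjusted p = 0.334 and 0.342).

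Mmp8, the neutrophil collagenase, had levels of 8.70, 7.52 and 8.64 against 6.26, 6.90 and 6.72, a difference of -1.66 ± 0.38 (limma adjusted p = 0.290). Ly6g, the surface marker of mouse neutrophils, had 8.57, 7.99 and 8.36 against 6.74, 7.15 and 6.87, a difference of -1.39 ± 0.35 (adjusted p = 0.357). Cxcr2, the chemokine receptor that brings neutrophils into tissue, had 7.24, 6.56 and 7.62 against 6.08, 6.21 and 6.13, with the deficient arrays at the lower quartiles. Array 2 was the lowest wild-type array in each of these 3 genes. Mmp9, a gelatinase that neutrophils and osteoclasts both make, went the other way, with 9.92, 10.19 and 9.92 against 10.92, 10.69 and 11.17 (0.92 ± 0.21, adjusted p = 0.290) and no overlap.

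The granulocyte precursor list was lower in value in all 12 members, with a median of -0.34. By limma 0 passed, 4 had an unadjusted p under 0.05 (7 in a fit of only the compared arrays) and 8 did not overlap. Over all probe sets 4.06% were lower at that p and 6.77% lower without overlap. The 4 at an unadjusted p under 0.05 were genes of the late granule stages. They were Lcn2, an iron-scavenging lipocalin (-1.11 ± 0.26), Chil3, a chitinase-like protein (-1.56 ± 0.41), Ngp, a granule protein (-1.39 ± 0.38), and Ltf, lactoferrin (-1.25 ± 0.35). Lcn2 had levels of 10.68, 10.07 and 10.44 against 9.12, 9.35 and 9.38. Granule stages were not compared over the whole list. Of the earliest granules, Mpo, myeloperoxidase, differed by -0.34 and Elane, neutrophil elastase, by -0.29. Markers of red blood cell precursors had small negative differences beside them. Of 10 measured erythroid genes 9 had a negative difference, 3 did not overlap and by limma 0 passed or had an unadjusted p under 0.05, with a median of -0.19. Their mean level per array, relative to each gene's mean over the arrays, ranged from -0.003 to 0.231 in wild type and -0.144 to -0.060 in deficient dura, with 1 of the 10 below the lower quartiles on average, and their part in the neutrophil result was not tested.

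**Figure D3:**
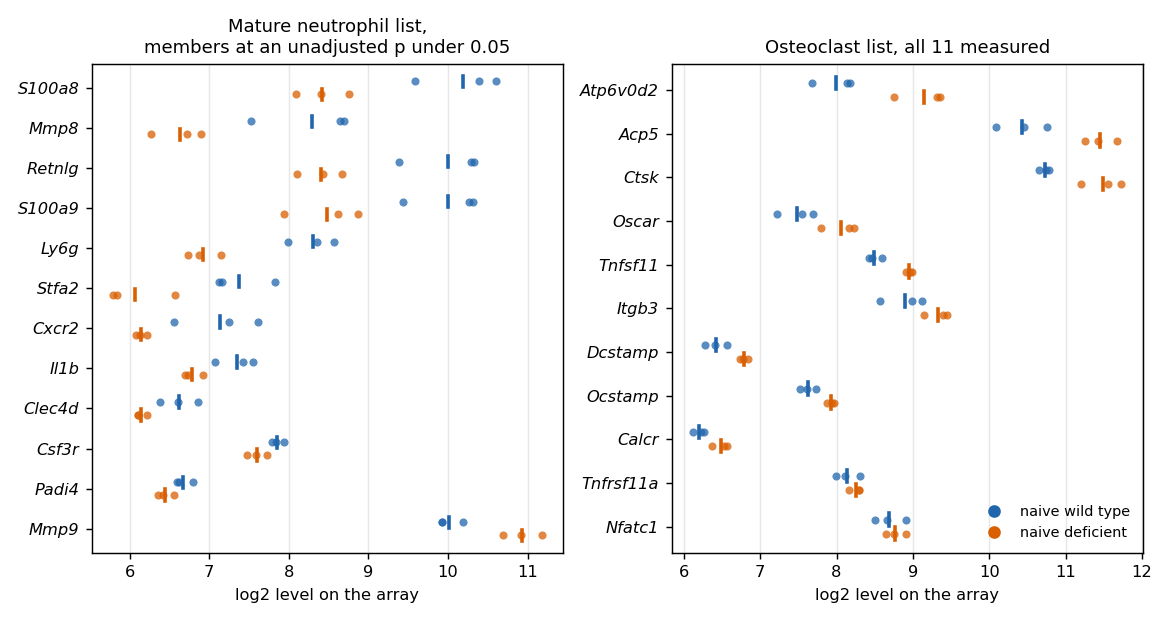
Deposited log2 level (x axis) of the mature neutrophil genes with an unadjusted p under 0.05 and of all 11 measured osteoclast genes, 1 point per mouse with bars at group means (blue wild type, orange deficient; 3 arrays each). The deficient arrays lie below the wild-type arrays in 11 neutrophil genes and above them in Mmp9 and in 9 osteoclast genes.

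Genes of osteoclasts, the multinucleate cells that resorb bone, had positive differences in deficient dura, and again none was called, while 4 passed with array weights. All 11 listed genes were measured and had positive differences, with a median of 0.44. By limma 0 passed, 9 had an unadjusted p under 0.05 and the same number did not overlap, against 2.76% and 5.06% of all probe sets on the higher side. Acp5, the tartrate-resistant acid phosphatase, had levels of 10.09, 10.76 and 10.45 in wild type and 11.67, 11.25 and 11.42 in deficient dura, a difference of 1.02 ± 0.21 (limma adjusted p = 0.290). Atp6v0d2, a subunit of the proton pump, had 7.67, 8.13 and 8.18 against 9.35, 8.76 and 9.32, a difference of 1.15 ± 0.29 (adjusted p = 0.362). Deficient array 2 was the lowest of its group in both and still lay above wild type.

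Ctsk, the collagen-degrading cathepsin of osteoclasts, had levels of 10.74, 10.66 and 10.78 against 11.56, 11.20 and 11.73, a difference of 0.77 ± 0.18 (limma adjusted p = 0.299). Oscar, an immunoglobulin-like osteoclast receptor, differed by 0.57 ± 0.13 and Dcstamp, which drives cell fusion, by 0.37 ± 0.14, neither passing. Tnfsf11, which encodes RANKL, the signal that drives osteoclast formation, had 8.59, 8.43 and 8.47 against 8.91, 8.99 and 8.96 (0.45 ± 0.11, adjusted p = 0.342). Its receptor Tnfrsf11a (0.11) and the transcription factor Nfatc1 (0.08), which RANKL induces, had overlapping groups. Tm4sf19, not on the list, differed by 0.76 ± 0.18, and Vdr, the vitamin D receptor, by 0.79 ± 0.15 (adjusted p = 0.202). With deficient arrays 1 and 3 left out, which leaves a single deficient array, 2 of the 11 osteoclast genes had an unadjusted p under 0.05 and the median was 0.31.

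Osteoblast genes had a median difference of 0.31 over 9 measured members. By limma 0 passed and 3 were higher at an unadjusted p under 0.05, as were 2.76% of all probe sets. Alpl, the bone alkaline phosphatase, had levels of 12.11, 11.91 and 11.83 against 12.18, 12.24 and 12.35 (0.31 ± 0.09, limma adjusted p = 0.598), and Sost, sclerostin, differed by 0.22 ± 0.08. The count was 6 without deficient array 2 and 8 with array weights. In the cartilage and tendon list, 4 of 13 were higher at an unadjusted p under 0.05, against 2.76% of all probe sets. By limma 0 passed, and the median was 0.20. Comp, a cartilage matrix protein, had 10.36, 10.26 and 10.07 against 10.82, 10.51 and 11.12 (0.59 ± 0.18, adjusted p = 0.604), and Fmod, fibromodulin, differed by 0.28 ± 0.09. Leaving out wild-type array 3 or deficient array 3 brought that count to 2, and the median was 0.12 without wild-type array 3.

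Other resident cells of the dura showed counts that depended on single arrays. At an unadjusted p under 0.05, 2.76% of all probe sets were higher and 4.06% lower. In the macrophage and monocyte list, 4 of 18 genes were higher at that p, by limma 0 passed, and the median was 0.06. C1qb, a complement component made by macrophages, had levels of 11.28, 10.94 and 11.08 against 11.30, 11.29 and 11.44, a difference of 0.25 ± 0.08 (limma adjusted p = 0.653). Leaving out any single array of the comparison gave 1 to 7 genes, and the median was -0.02 with the choroid plexus score as a covariate. In the meningeal fibroblast list, 8 of 15 genes had negative differences and the median was -0.05. The collagens Col1a1, Col1a2 and Col3a1 and the proteoglycan Lum were the 4 higher at an unadjusted p under 0.05, by 0.43, 0.31, 0.46 and 0.24, and Aldh1a2 was the 1 lower. The higher count was 0 without wild-type array 3 or deficient array 3 and 1 without wild-type array 1. It was also 0 with the choroid plexus score described next as a covariate. Aldh1a2, which makes retinoic acid in the meninges, had 11.08, 11.09 and 10.95 against 10.83, 10.28 and 10.84 (-0.39 ± 0.15, adjusted p = 0.695). Tnc, the matrix protein tenascin C, had 10.57, 10.49 and 10.25 against 11.26, 11.06 and 11.62 (0.88 ± 0.25, adjusted p = 0.540).

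Melanocytes also need Kit. Of 16 measured melanocyte genes, by limma 0 passed and 2 were lower at an unadjusted p under 0.05, against 4.06% of all probe sets. The median was -0.06, or -0.13 without wild-type array 3. The 2 lower genes were Gpr143, a pigment organelle receptor, by -0.29 ± 0.10, and Ednrb, an endothelin receptor, by -0.21 ± 0.09. The count ranged from 1 to 4 when single arrays were left out, being 1 without wild-type array 2 or deficient array 3 and 4 without deficient array 2. Dct, a melanin enzyme, had levels of 7.83, 8.11 and 7.76 against 7.68, 7.02 and 7.30, without overlap, and a difference of -0.56 ± 0.27 (limma adjusted p = 0.733).

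Choroid plexus markers differed among the deficient arrays themselves. Ttr, transthyretin, the carrier protein secreted by choroid plexus, had levels of 13.72, 13.38 and 13.68 in wild type and 10.01, 13.73 and 9.25 in deficient dura, so that deficient arrays 1 and 3 were low and array 2 was at the wild-type level. Of 16 measured choroid plexus genes, 15 had negative differences, by limma 0 passed or had an unadjusted p under 0.05, and the median was -1.70. The mean level of the list per array, relative to each gene's mean over the arrays, was 0.66 to 0.82 in wild type and -1.57, 1.06 and -1.71 in the deficient arrays. On the same scale the osteoclast list was -0.38 to -0.15 in wild type and 0.32, 0.10 and 0.34 in the deficient arrays, and the mature neutrophil list 0.16 to 0.42 against -0.39, -0.28 and -0.27. With the choroid plexus score as a covariate, 6 osteoclast genes were higher at an unadjusted p under 0.05 and the osteoclast median was 0.26 in place of 0.44. The granulocyte precursor median was -0.68 in place of -0.34, and the mature neutrophil median -0.50 in place of -0.47. In that fit Tpsb2 had an adjusted p of 0.0614 and the other 3 protease calls were kept. Stroke mice scored 0.740, -1.751 and 1.280 in wild type and 0.742, -1.666 and 0.715 in deficient dura on the choroid plexus list. Low choroid plexus scores were therefore not confined to deficient dura.

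**Figure D4:**
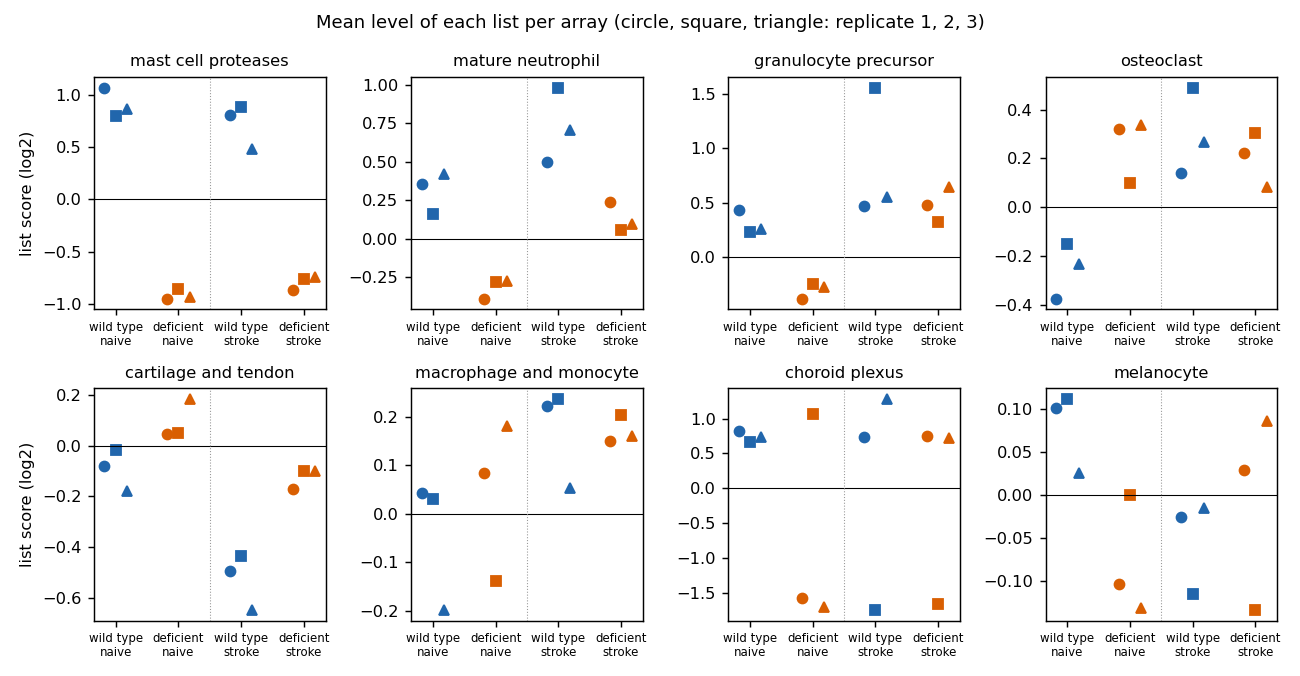
Mean level of 8 gene lists per array on the log2 scale, each gene relative to its own mean, with 1 point per mouse (circle, square and triangle for replicates 1, 2 and 3; blue wild type, orange deficient; naive left and stroke right of the dotted line). Protease scores separate the genotypes in both states, while the choroid plexus scores of naive deficient arrays 1 and 3 are -1.57 and -1.71, below the other 4 naive arrays shown. Stroke wild-type array 2 (-1.75) and stroke deficient array 2 (-1.67) are also low.

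In each list not described above at most 2 members had an unadjusted p under 0.05 in a direction. The shares of all probe sets at that p were 2.76% higher and 4.06% lower. Cell cycle genes gave 0 of 20 at an unadjusted p under 0.05 and a median of -0.09. T, natural killer and innate lymphoid genes gave 2 of 16 higher, B cell genes 0 of 13, endothelial genes 1 of 12 lower and neuron genes 0 of 11. Interferon-stimulated genes had 11 of 11 differences below 0, a median of -0.18 and 1 with unadjusted p under 0.05, Irf7, a transcription factor of that response, with 9.53, 8.86 and 8.56 against 8.48, 8.73 and 8.43. Among 16 measured clock genes, 2 were higher at an unadjusted p under 0.05, and Nr1d1, a repressor in the clock, had 10.67, 10.18 and 10.39 against 10.82 to 11.19 (0.59 ± 0.17, limma adjusted p = 0.565). The time of day at which each dura was taken is not given in the sources used here. By limma 0 genes of these lists passed.

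The genotype difference was also measured in 6 other mice, the stroke mice, which share no array with the naive comparison. There 565 probe sets passed (2.61%), 139 higher (0.642%) and 426 lower (1.97%). Leaving out single stroke arrays gave 226 to 593, and the count fell to 321, 298, 246 and 226 without wild-type array 1, wild-type array 3, deficient array 2 and deficient array 3. The protease differences were -3.84 ± 0.36 for Mcpt2, -3.21 ± 0.37 for Cpa3, -2.52 ± 0.37 for Mcpt4, -0.88 ± 0.16 for Tpsb2 and -0.95 ± 0.12 for Tpsab1, all passing (limma adjusted p = 3.68e-05 to 0.00879). By limma 0 of the 8 measured proteases had an interaction of genotype and stroke at an unadjusted p under 0.05 (7.35% of all probe sets). The called proteases were picked by their naive values, so a smaller difference in stroke mice shows no change by itself. Of the 128 lower genes defined above in naive mice, 88 (68.8%) were also lower in value in stroke mice, where 54.7% of all genes with a negative naive difference were. Of the 119 higher genes, 88 (73.9%) were also higher, against 70% of all genes with a positive difference, so this share was near the background. In stroke mice 10 of the 128 and 19 of the 119 passed adjustment in the same direction.

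Of the 15 genes highest in value in naive deficient dura, Comp, Pla2g2d, Matn4 and Gask1a passed in the same direction in stroke mice. Comp had levels of 8.51, 8.36 and 8.09 in stroke wild type and 9.77, 10.02 and 9.40 in stroke deficient dura, with no overlap. Its difference was 1.41 ± 0.18 (limma adjusted p = 0.000538). Pla2g2d, a secreted phospholipase, differed by 0.63 ± 0.18 in naive and 1.24 ± 0.18 in stroke mice (adjusted p = 0.00153). Matn4, a matrilin of the extracellular matrix, differed by 0.59 ± 0.18 and 0.91 ± 0.18 (adjusted p = 0.0125 in stroke mice). Gask1a, a Golgi protein, differed by 0.64 ± 0.13 and 0.79 ± 0.13 (adjusted p = 0.00366 in stroke mice). In the cartilage and tendon list, 4 of 13 passed in stroke mice, all higher, against 0.642% of all probe sets.

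Neutrophil genes were lower in value in both sets of mice. In stroke mice 18 of 19 mature neutrophil genes had a negative difference, 12 had an unadjusted p under 0.05 (8.17% of all probe sets were lower at that p) and 4 passed, with a median of -0.63. The members that passed there were Clec4d, Clec4e, Il1r2 and Trem1, receptors of activated myeloid cells, with naive differences of -0.47, -0.29, -0.18 and -0.07. The members lowest in naive mice had smaller differences in stroke mice, -0.55 ± 0.44 for S100a8 and -0.67 ± 0.35 for Ly6g, neither passing. These members were picked by their values in 1 set of mice, so a smaller value in the other set shows no change by itself. The interaction of genotype and stroke had an unadjusted p under 0.05 in 6 of the 19 (7.35% of all probe sets), and by limma 1, Mmp9, passed. In stroke wild-type array 2, S100a8 reached 11.36 and Ly6g 9.35.

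Osteoclast genes did not keep their direction in value. In stroke mice 9 of 11 had a negative difference, with a median of -0.15. Atp6v0d2 had levels of 8.84, 9.46 and 8.81 in stroke wild type and 9.17, 9.29 and 8.70 in stroke deficient dura. All of these lay above the naive wild-type levels of at most 8.18. The interaction of genotype and stroke had an unadjusted p under 0.05 in 9 of 11 osteoclast genes (7.35% of all probe sets), and by limma 0 passed. Over all probe sets 76 interactions passed (0.351%), 2 with a positive and 74 with a negative change of the difference. Leaving out single arrays gave 31 to 117, the highest without naive deficient array 2. Mmp9 was among the 76. Its stroke levels were 10.89, 11.56 and 10.99 in wild type and 10.74, 10.74 and 10.28 in deficient dura, so that deficient arrays were lower there and higher in naive mice.

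**Figure D5:**
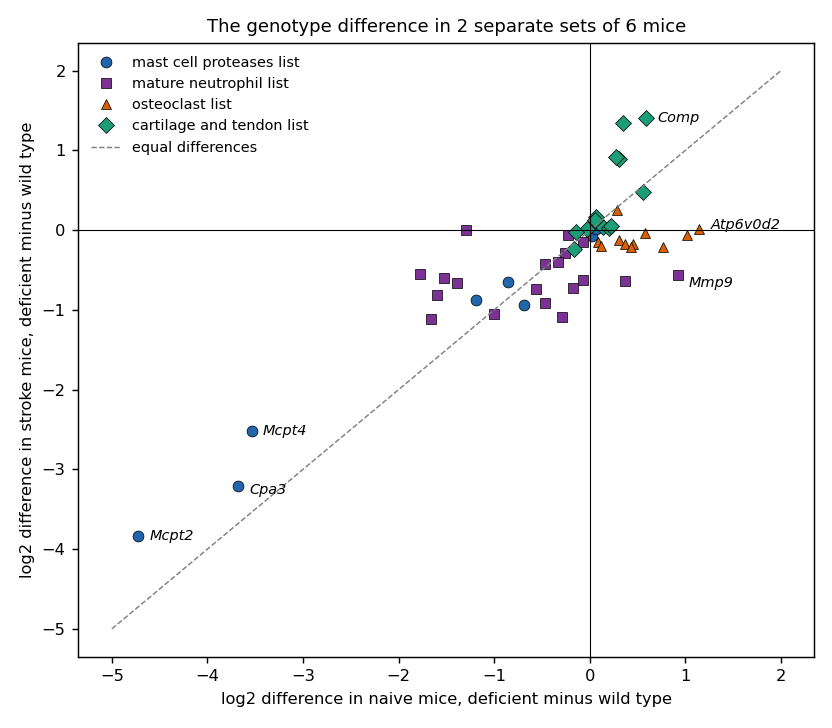
Log2 difference between deficient and wild-type dura in the 6 naive mice (x axis) against that in the 6 stroke mice (y axis) for 4 gene lists, 1 point per gene, with a dashed line at equal differences. The called proteases lie at lower left and above the line, with smaller differences in size in stroke than in naive mice. They were picked by their naive values, and none had an interaction of genotype and stroke at an unadjusted p under 0.05. Comp (0.59 and 1.41) also lies above the line, and osteoclast genes spread along the x axis near 0 in stroke mice.

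Naive engrafted dura is given only as levels, since any comparison of it would share the deficient or the wild-type arrays. Mcpt2 had levels of 10.77, 9.40 and 8.64 in the 3 engrafted arrays, Cpa3 10.90, 9.67 and 8.76 and Mcpt4 10.39, 8.95 and 8.12. All lay far above the deficient arrays, and they spanned a wider range than the wild-type arrays did. Acp5 had levels of 11.64, 11.59 and 11.77, Atp6v0d2 9.48, 9.32 and 9.50 and Mmp9 11.04, 11.04 and 11.20, all above the 3 wild-type arrays. S100a8 had 8.98, 8.93 and 10.49 and Ly6g 6.95, 7.31 and 8.49, with arrays 1 and 2 below the wild-type arrays and array 3 within their range. Kit was at 9.19, 9.07 and 9.07, below the wild-type arrays.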

How the data were processed

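The series holds 18 arrays, 3 in each of 6 groups, taken from the labels, of which 6 form the naive comparison. The authors deposited log2 values per probe set, and per the submitters' processing notes RMA, affy and R 3.0.0 were used, with no role given. The log2 scale was read from the values (3.42 to 14.06). Aligner, array annotation build and scan dates are not given in the sources used here, so no batch was tested.

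Of 34760 probe sets, 21640 had exactly 1 symbol and were tested, 1321 had several and 11799 were unnamed here. Identifiers of 21553 were in the RefSeq table. For the 954 genes with more than 1 probe set, the probe set of highest mean level over the series was taken. No value was rescaled. Within the compared naive groups, r between arrays over all probe sets was 0.984 to 0.994. Between these groups it was 0.987 to 0.993, inside the same range. No columns of the series were identical.

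The limma 3.58.1 model (R 4.3.3) held the 18 arrays with a mean for each group and had 12 residual and 3.41 prior degrees of freedom. The adjusted p threshold was 0.05, and the procedure was tested on simulated data. Python 3.11.15 with pandas 2.3.3 and matplotlib 3.10.9 made the tables and figures. Gene lists (35, with 436 of 481 entries measured) are described by counts and medians. The mice of a group are separate animals, and 3 per group limit the precision. The comparison, gene lists and rules were chosen with earlier results of these data known.

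Genes were named by rule: Kit and its measured neighbours in the annotation table; mast cell list members; probe sets past the threshold; the 15 highest and 15 lowest differences among genes with an unadjusted p under 0.01, groups that did not overlap and a higher group mean above the lower quartiles; and up to 4 members with the smallest p per list. Genes named beyond this (Cxcr2, Dcstamp, Elane, Kitl, Lum, Mpo, Nfatc1, Tnfrsf11a, the immunoglobulin family, and the neutrophil genes that passed in stroke mice) were chosen for their role or after their values were seen.

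Alternatives were leaving out each array, array weights, a minimum change of 1.5-fold, a choroid plexus score as covariate, the replicate number as a block, a trended robust variance, quantile normalization applied again, a fit on only the compared arrays, a fit on all probe sets and 1 without dim probe sets (18360 kept). Leaving out deficient arrays 1 and 3 was added after the data were seen.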

Additional observations from a re-analysis of the deposited data

Results flagged for a closer look

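The genotype difference of Mmp9 differed between naive and stroke mice. It was 0.92 in naive and -0.56 in stroke dura, and the interaction of genotype and stroke was -1.48 ± 0.29 (SE; limma adjusted p = 0.0414, over 21640 probe sets). Deficient levels were higher in 3 of 3 naive arrays and lower in 3 of 3 stroke arrays than every wild-type array of the same state.

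When all 34760 probe sets were tested, 5 passed, and 1 of them, probe set 10393887, has no single gene symbol and was outside the main comparison. Its levels were 7.80, 7.67 and 7.52 in naive wild type and 8.23, 8.05 and 8.21 in naive deficient dura, a difference of 0.50 ± 0.08 (SE; limma adjusted p = 0.0489). The naive engrafted arrays had 8.01, 8.01 and 8.10, the stroke wild-type arrays 8.30, 8.45 and 8.44 and the stroke deficient arrays 8.22, 8.26 and 8.18.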

How the results depend on the processing

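The naive comparison called 3 to 10 probe sets when single arrays were left out, 36 with array weights, 1 without deficient arrays 1 and 3 and 3 to 5 under the other alternatives, against 4. The cause of the higher count with array weights was not tested. After stroke the 565 became 226 to 593 when single arrays were left out, 1743 with array weights, 222 with only the compared arrays and 19 with a minimum change of 1.5-fold. The 76 interactions became 31 to 117, 305 with array weights and 4 with the minimum change. Without deficient arrays 1 and 3, which leaves 1 deficient array assumed to vary like the other groups, 5 mast cell identity genes and 2 osteoclast genes had an unadjusted p under 0.05, against 9 and 9. The 6 lower proteases stayed 6 under every alternative in which they were counted. They were not counted under the minimum change of 1.5-fold.

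Replicate numbers were tested as a block although the labels do not say that they pair mice. Deviations of same-numbered naive arrays correlated at 0.18, -0.13 and -0.29, and those of other-numbered arrays at -0.17 to 0.28. With 3 arrays per group these values cannot show whether same-numbered arrays shared a batch. With the replicate block, 4 naive, 424 stroke and 46 interaction probe sets passed. Of 43 named genes refitted under up to 16 alternatives each, 0 reversed, 9 values lost a call, 19 gained one and 657 kept their side of the threshold. None of the 43 had overlapping groups, so leaving out or weighting arrays could not reverse them. The losses were Tpsb2 in 7 alternatives, and Cpa3 and Mcpt4 (adjusted p = 0.09 and 0.108) without deficient arrays 1 and 3. Of the gains 17 came with array weights.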

Other observations

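Immunoglobulin genes were examined after their values were seen. Of 11 measured heavy and light chain genes, 4 were higher at an unadjusted p under 0.05 in naive deficient dura, 0 were lower and by limma 0 passed. Over all probe sets 2.76% were higher and 4.06% lower at that p. On average 3 of the 11 lay below the lower quartiles. The median difference of the 11 was 0.74, and it was 0.68 in the stroke mice. Ighm, the heavy chain of IgM, had levels of 8.05, 8.12 and 7.84 in wild type and 8.79, 9.10 and 8.38 in deficient dura, without overlap. Igkv4-55, a kappa chain variable segment, had 5.39, 5.79 and 5.01 against 6.23, 6.44 and 7.53, with the wild-type arrays below the lower quartiles. B cell genes outside the immunoglobulin loci had a median difference of -0.01.

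Of 1027 olfactory receptor probe sets 863 lay below the lower quartiles on average, so they serve here as mostly silent genes. At an unadjusted p under 0.05, 20 were higher and 13 lower, both smaller shares than the 2.76% and 4.06% of all probe sets. Without overlap 78 were higher, a larger share than the 5.06% of all probe sets, and 26 lower, a smaller share than 6.77%. Their median difference was 0.02. In stroke mice 64 were higher and 3 lower at that p, with a median of 0.07. The part of this upward shift in the other higher counts was not tested.

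Slc6a5, a glycine transporter of neurons, was among the 15 lowest of the genes with an unadjusted p under 0.01 and no overlap. Choroid plexus genes outside that set had larger negative differences. Its levels were 9.47, 9.49 and 9.24 in wild type and 8.57, 7.76 and 7.99 in deficient dura (-1.29 ± 0.31, limma adjusted p = 0.299), with a difference of -0.01 in stroke mice.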
